A study of Mus musculus with 12 samples.

Results

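The comparison described here set RAW 264.7 mouse macrophages that received the agent PSTO and then LPS against the same cells that received LPS alone. Members were the 3 libraries labelled PSTO + LPS and the 3 labelled LPS, 6 of the 12 libraries of the study, and all 14505 genes that passed a filter on low counts were tested. RAW 264.7 is a single immortal line derived from a mouse tumour and is widely used as a model of macrophages. The study has 4 groups of 3 libraries: control, which received vehicle without LPS; PSTO at 20 uM; LPS at 500 ng/mL after vehicle; and PSTO at 20 uM followed 30 minutes later by LPS at 500 ng/mL. Harvest followed at 6 h. What PSTO stands for is not in the labels; the series title mentions a garlic extract. The labels call the libraries triplicates without saying that they came from separate cultures, so the p-values measure the spread between these samples, which may be technical.

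LPS, a component of the outer membrane of Gram-negative bacteria, is bound by Cd14 and presented to the Toll-like receptor 4 complex. The receptor signals through Myd88 to NF-kB and the MAP kinases, which drive early cytokine, chemokine and immediate early genes. It also signals through Ticam1 to the kinase Tbk1 and the factor Irf3, which drive interferon beta. Secreted interferon then acts on the same cells through its receptor and brings up a later wave of antiviral and antigen presentation genes. A separate arm, governed by NRF2, answers electrophiles and oxidants with enzymes of glutathione, thioredoxin and haem metabolism. The comparison asks which genes of the LPS response were lower, higher or little changed when PSTO was given before LPS.

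Levels are counts per 1000000 reads (CPM) after TMM scaling, and values after ± are SDs over 3 libraries. Differences are log2 ratios of PSTO+LPS to LPS with their standard errors (SE), and the threshold for a call was 0.05 on the p of edgeR's quasi-likelihood test, adjusted by Benjamini-Hochberg over all tested genes. Library totals were 28625784, 24530712 and 22341924 reads in LPS and 20424584, 15817880 and 20088844 in PSTO+LPS. The 10 most abundant genes took 6.66 to 6.837% of the reads in LPS and 7.666 to 7.964% in PSTO+LPS. The library PSTO+LPS 1 stood apart from its group. On the second principal component of the 6 libraries (15.6% of the variance) it lay at 41.61, against -21.76 and -29.27 for the other members of its group, while the first component (49.7%) separated the groups. Among genes called higher in PSTO+LPS it was the highest of the 3 libraries in 1218 (50.6%), and among genes called lower it was the lowest in 1749 (55.5%). The total counts, the LPS classes and some list counts and calls are therefore also given without it below. Interactions and the overlap with PSTO alone are not. The macrophage markers Csf1r, Lyz2, Cd68 and Adgre1 were present in every library, with Adgre1 at 133 ± 4.98 CPM in LPS and 132 ± 4.39 CPM in PSTO+LPS. Marker lists of erythroid cells, epithelium, fibroblasts and both T and B lymphocytes each summed to between 0 and 10.1 reads per 1000000 in these 6 libraries. On that scale, without TMM scaling, neutrophil markers summed to 2 to 2.95 in LPS and 7.67 to 9.8 in PSTO+LPS, nearly all of it S100a8, and endothelial markers to 5.18 to 7.83 and 9.79 to 10.4. Over the 3 libraries of a group, Mpo had 2 reads in LPS and 10 in PSTO+LPS, Elane 0 and 4, S100a9 0 and 3, Ly6g 0 and 6, Camp 13 and 11, and Ltf and Cxcr2 0 in both. Endothelial markers are given beside Thbd and Procr, and the part of these transcripts in the results was not tested.

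Promoters of both arms of the response are shown first. The genes near them moved in opposite directions in this comparison and were chosen with their values known. Each sequence is the 250 bases before a gene's start in RefSeq, build GRCm38.p6, and the capitals mark the letters searched for. Gbp2 and Gbp5 encode interferon-inducible GTPases that attack the membranes of intracellular microbes, and both were lower in PSTO+LPS. Their capitals mark the interferon response letters, GAAA and GAAA with any 2 letters between them, on the opposite strand, 59 to 50 bases before the start of Gbp2 and 165 to 156 before that of Gbp5.
Gbp2 (chr3:142620413-142620662, plus strand): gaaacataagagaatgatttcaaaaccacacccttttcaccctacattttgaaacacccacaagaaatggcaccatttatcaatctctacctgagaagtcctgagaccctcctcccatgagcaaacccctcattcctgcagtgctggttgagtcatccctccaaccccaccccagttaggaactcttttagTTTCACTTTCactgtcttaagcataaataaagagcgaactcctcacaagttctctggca
Gbp5 (chr3:142496684-142496933, plus strand): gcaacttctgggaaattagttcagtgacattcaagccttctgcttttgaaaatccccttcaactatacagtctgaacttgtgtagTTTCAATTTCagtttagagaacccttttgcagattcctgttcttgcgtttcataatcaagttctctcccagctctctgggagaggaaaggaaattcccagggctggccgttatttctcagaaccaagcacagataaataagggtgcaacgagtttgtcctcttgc
Lif, a cytokine of the interleukin-6 family, and Procr, the endothelial protein C receptor, were both higher in PSTO+LPS. Their capitals mark the AP-1 letters TGANTCA, which bind dimers of Jun and Fos proteins, 228 to 222 bases before the start of Lif and 154 to 148 before that of Procr. The window of Gbp2 holds the AP-1 letters too, left in lower case. In Procr the same stretch also matches the antioxidant response letters TGACNNNGC, which the window of Lif holds elsewhere, on the opposite strand and in lower case.
Lif (chr11:4257318-4257567, plus strand): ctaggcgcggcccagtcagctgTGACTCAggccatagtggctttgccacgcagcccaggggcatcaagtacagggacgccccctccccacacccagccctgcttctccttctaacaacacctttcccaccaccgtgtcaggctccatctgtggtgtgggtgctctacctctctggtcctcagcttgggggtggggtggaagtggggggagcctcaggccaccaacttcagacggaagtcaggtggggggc
Procr (chr2:155750967-155751216, plus strand): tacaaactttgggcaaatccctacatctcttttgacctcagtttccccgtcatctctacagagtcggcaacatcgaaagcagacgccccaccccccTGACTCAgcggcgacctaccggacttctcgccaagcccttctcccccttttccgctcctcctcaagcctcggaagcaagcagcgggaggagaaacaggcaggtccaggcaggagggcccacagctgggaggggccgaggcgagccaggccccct
The interferon response letters, searched on both strands, were in the promoters of 9 of 10 interferon-inducible GTPases with a RefSeq match and of 10 of 23 other interferon-stimulated genes, against 282 of 9613 tested genes with a match (2.93%). A match in these letters describes the window and does not show a binding site. Shares over whole gene classes are given further below, and whether the letters bear on the direction of a gene was not tested.

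With LPS present, PSTO was accompanied by a different level of 5557 genes (38.3% of those tested), 2405 higher (16.6%) and 3152 lower (21.7%). These shares are the background for every list count below. Rises of 2-fold or more were found in 657 genes (4.53%) and falls of that size in 516 (3.56%). Without PSTO+LPS 1 the counts were 2115 higher and 2851 lower. The 3 libraries of each side did not overlap in 6871 genes (47.4%), so a gene whose libraries do not overlap is common here. Genes named for the largest differences were picked among those without overlap, so their lack of overlap adds no support. In bulk samples, fewer cells of a kind and less RNA per cell cannot be told apart.

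More of the genes that LPS itself raised were dampened than superinduced, and the number counted as left depends on the bound set for it. LPS raised 2014 genes at least 2-fold over control (13.9% of those tested). Of these, 730 (36.2%) were lower in PSTO+LPS than in LPS and are called dampened, 351 (17.4%) were higher and are called superinduced, and 265 (13.2%) were left. Over all tested genes 21.7% were lower and 16.6% higher, so the superinduced share was close to that of all genes. A gene counted as left was not called and had a 95% interval of its difference within 1.5-fold of no change. The other 668 (33.2%) were neither called nor bounded that closely. At least 2-fold falls were found in 241 LPS-raised genes and at least 2-fold rises in 170. The median log2 difference of LPS-raised genes was -0.22, against -0.03 for all tested genes. These classes rest on the same 3 LPS libraries on both sides, as the level from which PSTO+LPS was measured and as the level that placed a gene among the raised. Without PSTO+LPS 1 the counts were 662 dampened, 321 superinduced and 288 left.

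**Figure D1:**
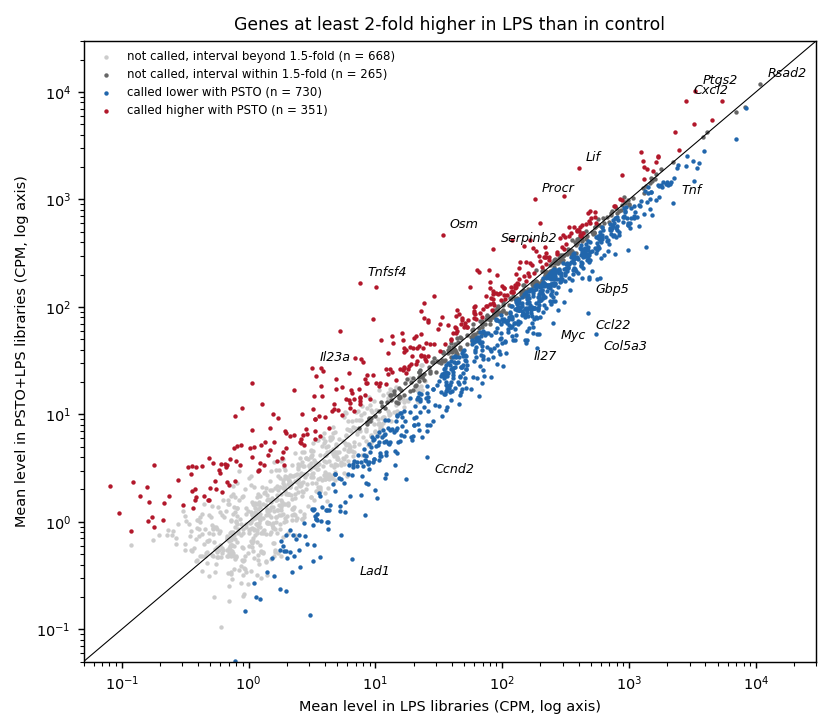
Mean level in the LPS libraries (x axis, CPM, log axis) against mean level in the PSTO+LPS libraries (y axis, CPM, log axis) for genes at least 2-fold higher in LPS than in control. Each point is a gene, the line marks equal levels, and the 730 dampened genes lie below the line and the 351 superinduced genes above it over the whole range of levels; 2 genes with a mean of 0 are not drawn and 1 lies outside the axes.

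Genes that LPS lowered at least 2-fold, 1848 in number (12.7%), were spread in both directions. In PSTO+LPS 385 of them (20.8%) were higher than in LPS, 309 (16.7%) were lower still and 328 (17.7%) were left. Among 7495 genes that LPS changed by less than 1.5-fold, 1200 (16%) were higher, 1566 (20.9%) lower and 2886 (38.5%) left. Over all tested genes 16.6% were higher and 21.7% lower. The median log2 difference was 0.09 for LPS-lowered genes and -0.03 for genes that LPS changed little.

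Secreted mediators split into a superinduced and a dampened set. Of 21 tested cytokines, all LPS-raised, 10 were higher and 7 lower in PSTO+LPS, with a median log2 difference of 0.21. Tnfsf4, the ligand of the T cell co-stimulator OX40, made the largest rise in the whole comparison under the naming rule. It stood at 6.7, 7.5 and 8.41 CPM in LPS and at 188, 158 and 155 CPM in PSTO+LPS. Every PSTO+LPS library exceeded every LPS library by more than 10-fold, and the log2 difference was 4.48 (SE 0.16, adjusted p = 2.43e-13). Control libraries held 0.0266 ± 0.0461 CPM and PSTO alone 0.968 ± 0.568 CPM.

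The superinduced cytokines included members of the interleukin-6 family. Osm, oncostatin M, was at 30.9, 39.5 and 31.5 CPM in LPS and at 450, 489 and 470 CPM in PSTO+LPS, with no overlap (log2 difference 3.79, SE 0.08, adjusted p = 1.54e-16). PSTO alone gave 62.8 ± 1.9 CPM of Osm, and LPS alone 34 ± 4.77 CPM. Lif was at 419, 370 and 417 CPM in LPS and at 2036, 1884 and 1963 CPM in PSTO+LPS, and its log2 difference was 2.29 (SE 0.08, adjusted p = 1.44e-13). Il6 was at 48.6, 64.8 and 52.3 CPM against 156, 147 and 159 CPM (log2 difference 1.48, SE 0.10, adjusted p = 4e-09). Groups did not overlap for either gene, and the PSTO+LPS libraries were the higher ones. Il11 rose as well, from 0.874 ± 0.405 CPM in LPS to 5.17 ± 1.02 CPM in PSTO+LPS. PSTO alone already gave 4.67 ± 0.976 CPM of Il11, and PSTO+LPS against PSTO was not called (log2 difference 0.14, edgeR adjusted p = 0.693).

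Il23a, the p19 subunit of interleukin 23, was at 4.06, 3.24 and 2.23 CPM in LPS and at 29.4, 25.6 and 26 CPM in PSTO+LPS (log2 difference 3.07, SE 0.23, adjusted p = 4.49e-09). PSTO without LPS left it at 0.0873 ± 0.0224 CPM, next to 0.0815 ± 0.0707 CPM in control. The colony-stimulating factor genes Csf2 and Csf3, which act on granulocytes and macrophages, rose by 2.30 (SE 0.22) and 1.61 (SE 0.07) on the log2 scale. Il1f9, an interleukin-1 family member that is also called interleukin 36 gamma, went from 5.23 ± 0.859 to 60.2 ± 14.3 CPM. Inhba, a subunit of activin, and Il1rn, the secreted antagonist of interleukin 1, rose by 1.94 and 1.13 on the log2 scale.

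Il1b and Tnf, the best known early cytokines, moved by small amounts in opposite directions. Il1b was at 1728, 1732 and 1654 CPM in LPS and at 2418, 2602 and 2584 CPM in PSTO+LPS, a log2 difference of 0.57 (SE 0.06, adjusted p = 1.01e-06). Tnf was at 2339, 2234 and 2206 CPM against 1544, 1499 and 1690 CPM, a log2 difference of -0.52 (SE 0.07, adjusted p = 1.01e-05). In neither gene did the groups overlap. Il10, an anti-inflammatory cytokine, was at 20.7, 26.3 and 19.7 CPM in LPS and 20.7, 26.9 and 26.4 CPM in PSTO+LPS, so the groups overlapped (log2 difference 0.15, 95% interval -0.20 to 0.50, adjusted p = 0.53). Ifnb1, interferon beta, was at 12.1, 16.3 and 17.5 CPM against 12, 11.2 and 16.9 CPM. Its groups overlapped too, and the 95% interval of its log2 difference, -0.70 to 0.32, did not bound it within 1.5-fold.

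The dampened cytokines included interleukin subunits and TNF family ligands, chosen for naming here after their values were seen. Il27, the p28 subunit of interleukin 27, was at 147, 167 and 151 CPM in LPS and at 30.6, 48.5 and 57.9 CPM in PSTO+LPS (log2 difference -1.76, SE 0.15, adjusted p = 2.95e-08). Its partner subunit Ebi3 fell by 0.50. Tnfsf9 and Tnfsf15, which co-stimulate T cells, fell by 1.28 and 1.17 on the log2 scale, and Il15, which supports natural killer and memory T cells, by 0.77. All LPS libraries of Il27 and Il15 were above all PSTO+LPS libraries.

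**Figure D2:**
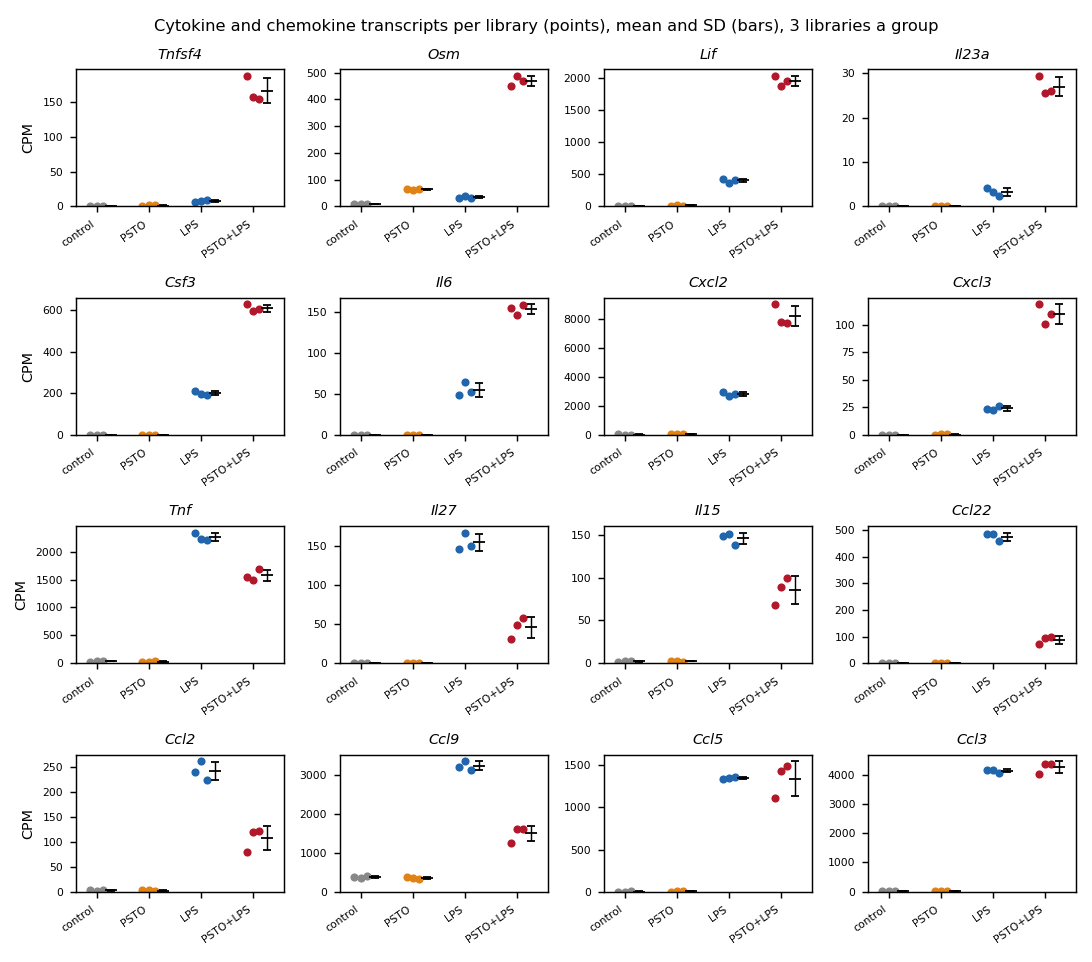
Levels of 16 cytokine and chemokine transcripts in each of the 12 libraries (y axis, CPM, from 0; x axis, the 4 groups), with points for libraries and a bar for the mean and SD of each group. Tnfsf4, Osm, Lif and Il23a stand highest in PSTO+LPS, Il27, Ccl22 and Ccl2 are lower in PSTO+LPS than in LPS, and Ccl5 and Ccl3 overlap between these groups; Il15, Ccl9, Ccl3, Csf3 and Il27 were added to the plot after their values were seen.

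Chemokines were lower more often than higher, at shares close to those of all LPS-raised genes. Of 16 tested, all LPS-raised, 3 were higher and 6 lower in PSTO+LPS, with a median log2 difference of -0.81. Over all tested genes 16.6% were higher and 21.7% lower, and over LPS-raised genes 17.4% and 36.2%. Cxcl2 and Cxcl3, ligands of the neutrophil receptor Cxcr2, were higher. Cxcl2 was at 2939, 2701 and 2779 CPM in LPS and at 9004, 7817 and 7734 CPM in PSTO+LPS (log2 difference 1.54, SE 0.09, adjusted p = 1.76e-10). Cxcl3 was at 23.6, 22.2 and 26.4 CPM against 118, 101 and 110 CPM (2.19, SE 0.09). For both genes every PSTO+LPS library was above every LPS library, and PSTO alone also held more than control (65 ± 7.91 against 13.4 ± 2.8 CPM of Cxcl2).

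Ligands of Ccr4 and Ccr2, receptors of T cells and monocytes, were lower. Ccl22 was at 483, 483 and 457 CPM in LPS and at 70.7, 95.2 and 99 CPM in PSTO+LPS (log2 difference -2.43, SE 0.12, adjusted p = 2.45e-11). Ccl17, the other Ccr4 ligand, was at 2.22, 2.5 and 2.08 CPM against 0.173, 0.0755 and 1.19 CPM. Its call (log2 difference -2.19, adjusted p = 0.0209) was lost without PSTO+LPS 1, at an adjusted p of 0.0793, and without LPS 1, LPS 2 or PSTO+LPS 2. Ccl2 was at 241, 262 and 224 CPM against 80, 120 and 123 CPM (-1.17, SE 0.11, adjusted p = 9.7e-08), and Ccl7 fell by 1.37. Neither pair of groups overlapped, with the LPS libraries above.

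Of the other chemokines, Ccl4 rose by 0.47, Ccl9 and Cxcl11 fell by 1.11 and 0.52, and 7 were not called. Ccl5 was at 1337, 1346 and 1366 CPM in LPS and 1107, 1435 and 1487 CPM in PSTO+LPS, with a log2 difference of -0.01 (95% interval -0.19 to 0.17, adjusted p = 0.96). Ccl3 had a log2 difference of 0.04 (95% interval -0.10 to 0.19). Cxcl10, an interferon-induced ligand of Cxcr3, was at 949, 1047 and 987 CPM against 716, 931 and 1010 CPM, overlapping, with a 95% interval of -0.42 to 0.08. With no filter on low counts Cxcl10 was called lower, at a log2 difference of -0.19 (adjusted p = 0.00256).

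Genes of the NF-kB system moved little and unevenly. Of 19 tested, 4 were higher and 6 lower, against 16.6% and 21.7% of all tested genes, and the median log2 difference was -0.08. Nfkbia, the inhibitor IkB-alpha and an early NF-kB target, was at 850, 842 and 820 CPM in LPS and 730, 788 and 840 CPM in PSTO+LPS, with overlap and a 95% interval of -0.22 to 0.04. Tnfaip3, which encodes the ubiquitin-editing inhibitor A20, was at 489 CPM in each LPS library and at 258, 264 and 293 CPM in PSTO+LPS (log2 difference -0.85, SE 0.05, adjusted p = 3.79e-10). Its LPS libraries lay above all PSTO+LPS libraries. Cyld, another deubiquitinase that restrains NF-kB, fell by 0.83, and Tnfaip2 by 1.07. Traf1, an adaptor of TNF receptors, rose by 0.64 on the log2 scale, from 476 ± 3.85 to 742 ± 17.5 CPM.

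Receptors and adaptors of Toll-like receptor signalling were more often lower than higher. Of 24 tested, 12 were lower and 4 higher, against 21.7% and 16.6% of all tested genes, with a median log2 difference of -0.19. Cd14, the LPS co-receptor, was among the higher ones, at 2201, 2111 and 2143 CPM in LPS and 5122, 5327 and 5174 CPM in PSTO+LPS (log2 difference 1.28, SE 0.04, adjusted p = 9.19e-14). Irak3, a kinase-like protein that restrains the pathway, was at 33.3, 29.8 and 30 CPM against 62.4, 61.6 and 62.5 CPM (1.0, SE 0.09, adjusted p = 3.48e-08). Both genes had all PSTO+LPS libraries above all LPS libraries. Tlr1 fell by 1.06 and Ticam2, the adaptor that couples Tlr4 to Ticam1, by 1.28, to 1.65 ± 0.37 CPM. Tlr4 itself was at 41.8, 48 and 41.8 CPM against 41, 32.9 and 38.2 CPM, a log2 difference of -0.23 (adjusted p = 0.034) that was lost in 13 of the settings tried. These were upper-quartile scaling (-0.19, adjusted p = 0.0775), the filter of 50 reads (0.0906), limma-voom (0.0905), the 6 libraries alone (0.147), and leaving out any control or PSTO library, LPS 2, PSTO+LPS 2 or PSTO+LPS 3 (adjusted p of 0.052 to 0.168).

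Immediate early genes, which cells switch on within minutes of a signal, were mostly higher in PSTO+LPS at 6 h. Of 21 tested, 13 were higher, 2 lower and 6 not called, and the median log2 difference was 0.60. Jun, an AP-1 subunit, was at 29.9, 20.2 and 25.3 CPM in LPS and 134, 144 and 132 CPM in PSTO+LPS (log2 difference 2.44, SE 0.10, adjusted p = 1.07e-12). Fosb, another AP-1 subunit, was at 1.51, 0.931 and 1.81 CPM against 14, 10.9 and 12 CPM (3.12, SE 0.28, adjusted p = 4.87e-08). In both genes the groups did not overlap, and LPS had changed neither by as much as 1.5-fold from control. PSTO alone raised Jun from 35.3 ± 2.96 to 192 ± 0.625 CPM. Maff, a small MAF protein, rose from 22.9 ± 1.9 to 91.4 ± 2.6 CPM, and Nr4a1, an orphan nuclear receptor, by 2.47 on the log2 scale, from 2.33 ± 0.787 to 12.9 ± 2.24 CPM.

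Fos and Myc were the lower ones. Myc, the growth regulator, was at 256, 248 and 254 CPM in LPS and at 59.3, 75.9 and 78.4 CPM in PSTO+LPS (log2 difference -1.83, SE 0.09, adjusted p = 2.63e-11), with no overlap. LPS had raised it from 9.49 ± 1.3 CPM in control. Fos had a log2 difference of -0.51.

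Feedback genes that end MAP kinase or cytokine receptor signals or destabilise cytokine transcripts were also mostly higher. Of 21 tested, 14 were higher and 1 lower, with a median log2 difference of 0.37. Dusp8, a phosphatase of the stress-activated kinases, was at 0.335, 0.931 and 1.38 CPM in LPS and 10.9, 11.7 and 11.8 CPM in PSTO+LPS (log2 difference 3.74, SE 0.32, adjusted p = 3.25e-08). Its groups lay far apart, and PSTO alone gave 17.1 ± 0.833 CPM. Zfp36l1, which promotes decay of AU-rich transcripts, rose by 2.17, and Cish, an inhibitor of cytokine receptor signals, by 1.55. Dusp14 stood at 0.963, 0.098 and 0.479 CPM against 1.67, 2.42 and 1.61 CPM (1.84, adjusted p = 0.0209), a call that was lost when LPS 2, LPS 3 or PSTO+LPS 2 was left out.

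Interferon-stimulated genes were dampened or not called. Of 31 tested, all LPS-raised, 20 were lower and 0 higher, with a median log2 difference of -0.35. At an unadjusted edgeR p under 0.05 the counts were also 20 lower and 0 higher. Without PSTO+LPS 1, 17 were lower and 1 higher; DESeq2 called 13 lower and 0 higher, limma-voom 21 and 1, and edgeR on the 6 libraries alone 20 and 3. Oasl2, an antiviral protein of the oligoadenylate synthetase family, was at 672, 688 and 692 CPM in LPS and 251, 357 and 384 CPM in PSTO+LPS (log2 difference -1.05, SE 0.15, adjusted p = 2.24e-05). Ifit2, which binds foreign RNA, was at 3562, 3726 and 3413 CPM against 1676, 2374 and 2501 CPM (-0.71, SE 0.10, adjusted p = 1.23e-05). In both genes PSTO+LPS 1 was the lowest library, and the other members of its group still lay below every LPS library. Zbp1, a sensor of Z-form nucleic acid, fell by 0.94, and Mx1 by 0.73. Isg15 and Mx2 were not called, with log2 differences of -0.20 and 0.21. Dampened here means lower in PSTO+LPS than in LPS. Against control, PSTO alone lowered 26 of the 31 and raised 0, with a median log2 difference of -1.20. The interaction was called for Ifit2 (0.86, edgeR adjusted p = 0.00574) and Mx1 (1.58, 0.0281), so their fall was smaller with LPS. It was not called for Oasl2 or Zbp1. Mx1 was low without LPS, at 2 ± 0.63 CPM in control and 0.395 ± 0.106 CPM in PSTO.

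Interferon-inducible GTPases and antigen presentation genes went the same way. Of 16 tested GTPases 9 were lower and 0 higher, with a median of -0.76; DESeq2 called 6 lower and limma-voom 13, each with 0 higher, and 11 were lower and 0 higher at an unadjusted edgeR p under 0.05. Gbp5 was at 465, 504 and 470 CPM in LPS and at 134, 200 and 237 CPM in PSTO+LPS (log2 difference -1.34, SE 0.14, adjusted p = 3.44e-07). Gbp2 was at 512, 544 and 488 CPM against 149, 242 and 257 CPM (-1.25, SE 0.13). Neither pair of groups overlapped, and both promoters are printed above. Iigp1 fell by 1.28 and Gbp6 by 1.10. Against control, PSTO alone lowered 5 of the 16 GTPases and raised 0, with a median log2 difference of -1.21. Members of these families are similar in sequence, and the handling of shared reads is not given in the sources used here.

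Of 17 tested genes of MHC class I presentation and the immunoproteasome, all LPS-raised, 15 were lower and 0 higher, with a median log2 difference of -0.56. Tap2, a subunit of the peptide transporter, was at 119, 132 and 135 CPM in LPS and 39.9, 61 and 63.8 CPM in PSTO+LPS (-1.23, SE 0.13, adjusted p = 3.53e-07). Psmb8, Psmb9 and Psmb10, the inducible catalytic subunits of the proteasome, fell by 0.83, 1.05 and 1.22. Without PSTO+LPS 1, 14 of the 17 were lower and 0 higher. Over all settings tried, DESeq2 and limma-voom included, 14 to 16 were lower and 0 higher, and at an unadjusted edgeR p under 0.05 the counts were 15 and 0. Against control, PSTO alone lowered 10 of the 17 and raised 0, with a median log2 difference of -0.35.

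**Figure D3:**
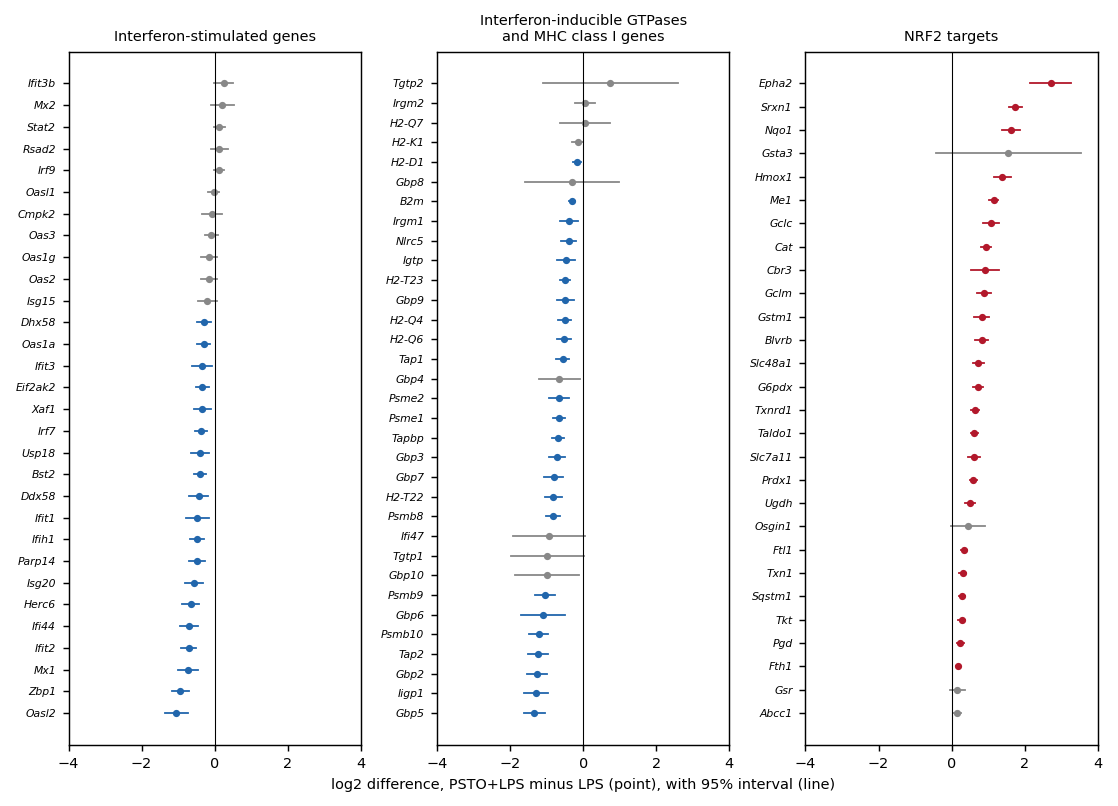
The log2 difference of PSTO+LPS minus LPS (x axis; point) with its 95% interval (line) for tested interferon-stimulated genes (1 of them is not drawn), interferon-inducible GTPases or MHC class I genes, and NRF2 targets (y axis). Blue marks genes called lower, red genes called higher and grey genes not called, and the first and second panels hold no red point while 24 of 28 NRF2 targets are red.

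NRF2 targets were nearly all higher. Of 28 tested, 24 were higher and 0 lower in PSTO+LPS, against 16.6% and 21.7% of all tested genes, and the median log2 difference was 0.68. Without PSTO+LPS 1 the counts were again 24 higher and 0 lower, DESeq2 and limma-voom each called 25 and 0, and 25 and 0 passed an unadjusted edgeR p under 0.05. Srxn1, which reduces oxidised peroxiredoxins, was at 609, 606 and 617 CPM in LPS and 2415, 1856 and 1874 CPM in PSTO+LPS (log2 difference 1.75, SE 0.09, adjusted p = 1.75e-11). Hmox1, haem oxygenase 1, was at 2836, 2854 and 3038 CPM against 8988, 6753 and 7067 CPM (1.39, SE 0.11, adjusted p = 1e-08). Both had PSTO+LPS 1 as the highest library, and all PSTO+LPS libraries above all LPS libraries.

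Nqo1, a quinone reductase, was at 11.3, 11.9 and 12.6 CPM in LPS and 39.6, 36.4 and 33.9 CPM in PSTO+LPS (1.63, SE 0.12, adjusted p = 2.61e-09). Gclm, the modifier subunit of the enzyme that starts glutathione synthesis, rose by 0.89, Txnrd1, thioredoxin reductase, by 0.64, and Slc7a11, the cystine importer, by 0.60. Only 4 of the 28 genes were among those that LPS raised at least 2-fold, and all 4 were superinduced. Epha2, a receptor kinase included in the list, was at 1.3, 0.833 and 0.958 CPM in LPS and at 8.81, 4.45 and 7.09 CPM in PSTO+LPS (2.71, SE 0.27). The antioxidant response letters TGACNNNGC were found in 5 of 23 NRF2 target promoters with a match (21.7%), against 12.2% of all tested genes with a match. Nfe2l2, the gene of NRF2 itself, named here after its value was seen, was lower, at 213 ± 9.45 CPM in LPS and 111 ± 5.85 CPM in PSTO+LPS. Other enzymes outside the list that handle reactive lipids rose too: Gsta2, a glutathione transferase, by 2.69 and Ptgr1, a reductase of prostaglandins and enals, by 2.29 on the log2 scale.

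Other stress programmes were mixed. Of 19 tested genes of endoplasmic reticulum chaperones and degradation, 14 were higher and 2 lower (median log2 difference 0.33), with Dnajb9 at 22.6 ± 0.352 CPM in LPS and 47.3 ± 7.5 CPM in PSTO+LPS, and Herpud1 up by 0.73. Of 22 ATF4 stress response genes, 6 were higher and 9 lower. Ddit4 and Atf5 rose by 1.28 and 1.09, Trib3 and Gpt2 fell by 0.79 and 0.93, and Ddit3, the gene of CHOP, was at 15.9 ± 0.318 and 14.5 ± 1.32 CPM (95% interval of the log2 difference -0.40 to 0.13). Among 18 heat shock genes 8 rose and 4 fell. Hsp90aa1 rose by 0.82, and Hspa1a by 1.56 from 1.43 ± 0.489 CPM, but its near-identical copy Hspa1b, at 93.4 ± 5.81 and 102 ± 8.98 CPM, was not called, so the split of reads between the pair is uncertain. Of 6 metallothionein and zinc genes, 2 were higher and 1 lower, Mt1, which fell by 0.75.

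**Figure D4:**
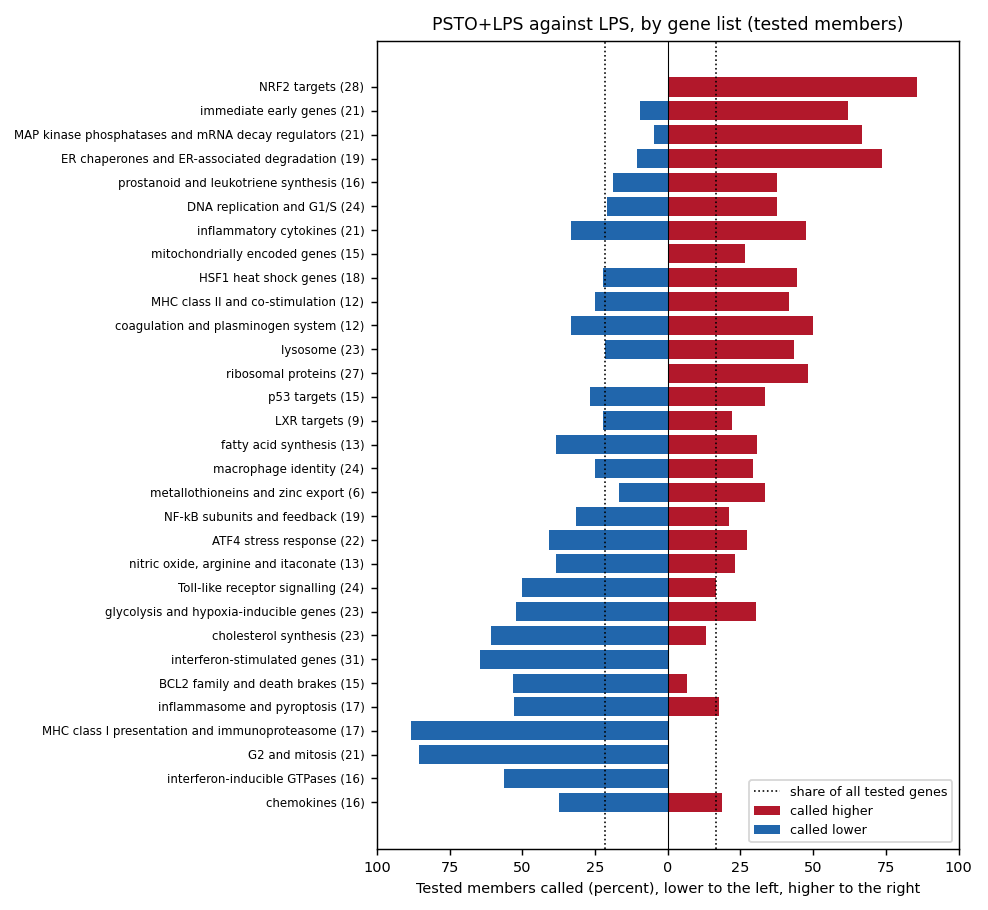
Share of tested members called in PSTO+LPS against LPS (x axis, percent; lower to the left, higher to the right) for each of 31 gene lists (y axis, number tested in brackets), ordered by median log2 difference. Dotted lines mark the shares of all tested genes, 16.6% higher and 21.7% lower; NRF2 targets and immediate early genes stand at the top, and chemokines, interferon-inducible GTPases and G2 and mitosis genes at the bottom.

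Enzymes of lipid mediators and arginine use moved unevenly. Of 16 tested prostanoid and leukotriene genes, 6 were higher and 3 lower, and without PSTO+LPS 1 the counts were 4 and 2. Ptgs2, cyclooxygenase 2, was at 3424, 3265 and 3232 CPM in LPS and 11520, 9297 and 9494 CPM in PSTO+LPS (log2 difference 1.61, SE 0.07, adjusted p = 2.05e-12), with no overlap. Hpgds, a prostaglandin D synthase, rose by 0.84, and Ptgs1 and the prostaglandin E receptor gene Ptger4 fell by 0.70 and 0.68. Of 13 tested genes of nitric oxide, arginine and itaconate, 3 were higher and 5 lower. Nos2, the inducible nitric oxide synthase, was at 466, 488 and 445 CPM against 252, 412 and 400 CPM, a log2 difference of -0.40 (SE 0.12, adjusted p = 0.0132), with PSTO+LPS 1 the lowest. Arg2 and Odc1, enzymes that lead arginine to polyamines, rose by 1.99 and 0.90, and the arginine importers Slc7a2 and Slc7a1 fell by 1.45 and 0.68.

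Inflammasome and BCL2 family genes were more often lower than higher, and p53 targets moved both ways. Of 17 inflammasome and pyroptosis genes, 9 were lower and 3 higher, with a median log2 difference of -0.41. Without PSTO+LPS 1 the counts were 7 lower and 2 higher. Gsdmd, the pore-forming protein of pyroptosis, was at 201, 200 and 223 CPM in LPS and 73.4, 92.5 and 102 CPM in PSTO+LPS (-1.22, SE 0.08, adjusted p = 1.64e-09). All 3 of its LPS libraries lay above all PSTO+LPS libraries. Mefv, the gene of pyrin, rose by 1.27. Nlrc4, at 1.31 ± 0.759 CPM in LPS, rose by 1.40 with an adjusted p of 0.0102, which became 0.0666 without PSTO+LPS 1. Of 15 genes of the BCL2 family and death brakes, 8 were lower and 1 higher. Bid, which links death receptors to mitochondria, fell by 1.30 and Bcl2l1, a survival factor, by 0.81. Bcl2a1a and Bcl2a1b fell by 1.01 and 0.72, though these near-identical copies may share reads. Among p53 targets 5 were higher and 4 lower of 15, with Pmaip1, the gene of the death protein NOXA, at 24.4, 22.9 and 23.7 CPM against 144, 112 and 108 CPM (2.36, SE 0.10, adjusted p = 3.09e-12), Trp53inp1 up by 1.73, Gadd45a up by 0.75 and Eda2r down by 1.06 on the log2 scale.

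Of 21 G2 and mitosis genes, 18 were lower and 0 higher, with a median log2 difference of -0.71, and the same counts were found without PSTO+LPS 1, with DESeq2, with limma-voom and at an unadjusted edgeR p under 0.05. Cenpf, a centromere protein, was at 26.7, 27.7 and 19.4 CPM in LPS and 6.62, 7.62 and 8.58 CPM in PSTO+LPS (-1.70, SE 0.13, adjusted p = 5.32e-09). Plk1, a mitotic kinase, was at 17.1, 16.2 and 17.6 CPM against 3.05, 7.17 and 9.12 CPM (-1.41, SE 0.21). Groups were separate for both, with LPS above, and control libraries were higher again, at 82.8 ± 4.99 CPM of Cenpf. Ccnb1 and Cdk1 fell by 1.22 and 1.14. Of 24 DNA replication and G1/S genes, 9 were higher, 5 lower and 10 not called, with a median of 0.22. Without LPS the direction differed: PSTO against control lowered 23 of the 24 and raised 0, with a median log2 difference of -0.80. E2f1, which drives S-phase genes, was at 5.07, 4.31 and 4.2 CPM against 13.7, 11.6 and 9.71 CPM (1.36, SE 0.14, adjusted p = 4.81e-07), still under its control level of 29.4 ± 2.99 CPM. Cdc6, Cdc45 and Gins2, of the origin-firing machinery, rose by 0.96, 0.93 and 0.73, and Cdt1, which loads the replicative helicase, fell by 0.66. Ccnd2, cyclin D2, was at 26.5, 28.2 and 22.4 CPM in LPS and 2.48, 5.96 and 3.63 CPM in PSTO+LPS (-2.70, SE 0.25, adjusted p = 1.01e-07).

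Cholesterol synthesis genes were mostly lower, and other metabolic genes moved both ways. Of 23 cholesterol synthesis genes, 14 were lower and 3 higher (median log2 difference -0.31), with Mvk, mevalonate kinase, falling by 1.45 from 18.9 ± 2.66 to 6.93 ± 1.85 CPM, and Lss, Hsd17b7 and Mvd falling by 0.91, 0.91 and 0.80. Of 13 fatty acid synthesis genes, 4 were higher and 5 lower. Scd1, Acaca and Scd2 fell by 0.75, 0.63 and 0.44, and Acss2 rose by 0.83. Among 9 LXR target and receptor genes, 2 were higher and 2 lower, against 16.6% and 21.7% of all tested genes. The sterol exporters moved apart, Abcg1 falling by 1.58 and Abca1 rising by 0.87; Nr1h2 rose by 0.27 and Nr1h3 fell by 0.62, a call lost without PSTO+LPS 1 (adjusted p = 0.057). Of 23 glycolysis and hypoxia-inducible genes, 7 were higher and 12 lower. Pfkfb3, which makes the activator of glycolysis, was at 70.8, 67.2 and 60 CPM in LPS and 225, 208 and 195 CPM in PSTO+LPS (1.66, SE 0.07, adjusted p = 1.38e-12). Vegfa, the vascular growth factor, rose by 1.51, and Pfkl, the liver-type phosphofructokinase, fell by 1.37, from 139 ± 1.2 to 53.6 ± 7.73 CPM. Egln3, at 0.842 ± 0.271 and 2.33 ± 0.858 CPM, was called at an adjusted p of 0.0244 that became 0.0834 without PSTO+LPS 1.

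Regulators of clotting and of plasmin, which macrophages express on their surface, held some of the largest rises. Of 12 tested, 6 were higher and 4 lower. Thbd, thrombomodulin, was at 11.8, 8.92 and 9.58 CPM in LPS and 159, 154 and 144 CPM in PSTO+LPS (log2 difference 3.90, SE 0.13, adjusted p = 1.12e-13). Procr, whose product works with thrombomodulin to activate protein C, was at 186, 168 and 186 CPM against 1116, 954 and 939 CPM (2.48, SE 0.08, adjusted p = 9.19e-14). Both genes were far above LPS in every PSTO+LPS library. Serpinb2, an inhibitor of plasminogen activators, rose by 2.01 to 342 ± 28.3 CPM. F10, coagulation factor X, fell by 1.73, from 28.5 ± 1.53 to 8.59 ± 1.11 CPM, and Plau, the urokinase gene, by 0.87. Thrombomodulin and the protein C receptor are best known from endothelium, whose other markers gave these values: Vwf rose by 1.10, Kdr fell by 2.07, Cdh5 and Pecam1 had log2 differences of 0.38 and 0.57 without a call, Tek had 1 read in LPS and 9 in PSTO+LPS, and Emcn, Cldn5 and Tie1 had 0 reads. Their part in these results was not tested.

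**Figure D5:**
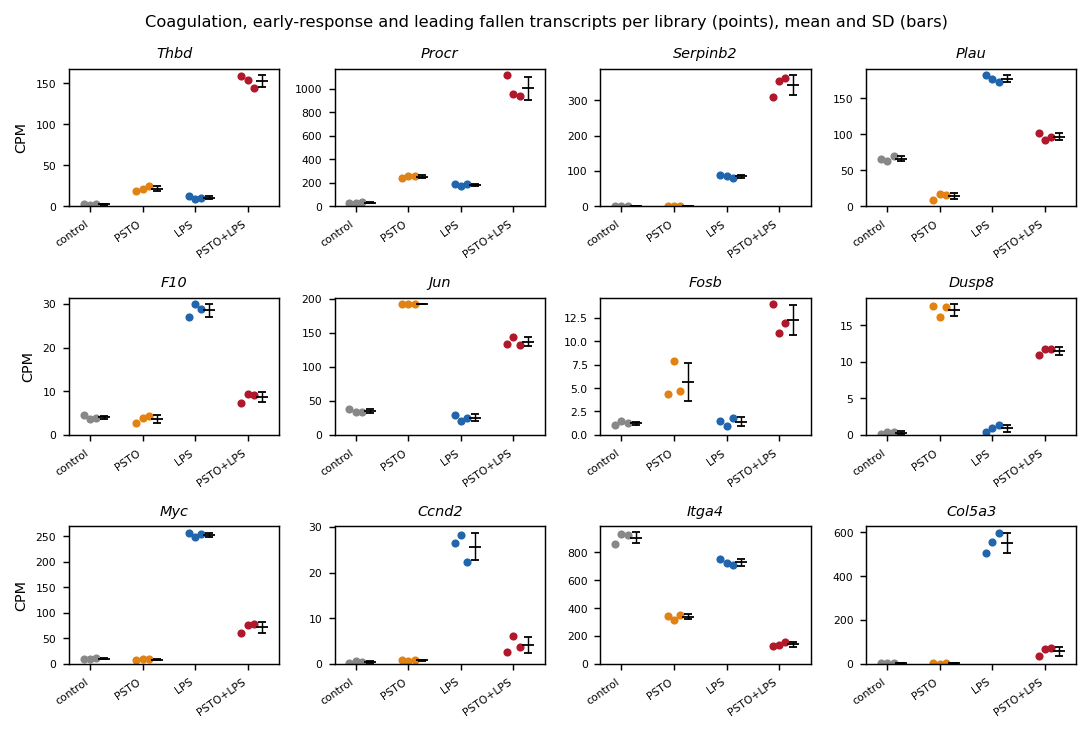
Levels of 12 transcripts of coagulation, early response and leading falls in each of the 12 libraries (y axis, CPM, from 0; x axis, the 4 groups), with points for libraries and a bar for the mean and SD of each group. Thbd, Procr, Serpinb2 and Fosb stand highest in PSTO+LPS, Jun and Dusp8 are highest with PSTO alone, and Myc, Ccnd2 and Col5a3 are highest in the LPS libraries; Myc and Plau were added after their values were seen.

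The largest falls included matrix, adhesion and signalling genes. Lad1, a component of basement membrane anchoring, was at 6.28, 5.2 and 8.2 CPM in LPS and 0.346, 0.83 and 0.179 CPM in PSTO+LPS (log2 difference -3.90, SE 0.50, adjusted p = 1.98e-05). Col5a3, a collagen chain, was at 505, 555 and 595 CPM against 32.8, 66.5 and 70.3 CPM (-3.29, SE 0.19, adjusted p = 1.04e-10). LPS had raised Col5a3 from 3.04 ± 0.325 CPM in control, and all its LPS libraries were above all PSTO+LPS libraries, as the naming rule required. Gpc1, a cell surface proteoglycan, fell by 2.86, Oaf by 2.84 and Ocstamp, a fusion factor of osteoclasts, by 2.84. Itga4, an integrin subunit used in adhesion to vessel walls, was at 756, 721 and 707 CPM in LPS and 125, 135 and 156 CPM in PSTO+LPS (-2.39, SE 0.07, adjusted p = 2.42e-14). LPS had changed it by less than 1.5-fold, and PSTO alone lowered it from 906 ± 39.4 to 338 ± 17.9 CPM. Rgs2, a brake on G protein signals, fell by 2.20 and Gna15, a G protein subunit, by 2.25. Hdac9, a histone deacetylase, fell by 2.45, Sema6d by 2.34, Pdzk1ip1 by 2.22, Mylk2 by 2.21 and Ifi205, an interferon-inducible DNA sensor family member, by 2.15.

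Among genes that LPS hardly moved, Ighm, Dhrs3, Tifab and Atm fell by 2.0, 1.98, 1.93 and 1.87 on the log2 scale. Atm, the kinase that answers DNA breaks, was at 115, 115 and 110 CPM in LPS and 24.5, 34.4 and 34.1 CPM in PSTO+LPS, with no overlap. The leading rises outside the lists were Ptpn14, a phosphatase (3.64), Gucy2g (3.02), Cd93, a receptor of phagocytes and endothelium (2.88), Galnt3 (2.87), Mmp12, macrophage elastase (2.76), the chemokine receptor Ccr3 (2.75), Neurl3 (2.70) and Smad7, an inhibitor of TGF-beta signals (2.54). Cd93 was at 5.99, 5.49 and 6.6 CPM in LPS and 47.9, 44.8 and 39.9 CPM in PSTO+LPS. Neurl3, which LPS had lowered from 89.5 ± 1.05 CPM, was at 12.1, 12.8 and 13 CPM against 94, 79.4 and 72.9 CPM. In each of these genes the groups did not overlap, as the naming rule required.

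Genes of macrophage identity and of the antigen-presenting surface did not move together. Of 24 identity genes, 7 were higher and 6 lower, against 16.6% and 21.7% of all tested genes, with a median log2 difference of -0.05. Without PSTO+LPS 1 the counts were 7 higher and 8 lower. Maf, a macrophage transcription factor, fell by 0.97. Cx3cr1, the fractalkine receptor, fell by 1.14 and Siglec1, a sialic acid receptor, by 1.05. Mrc1, the mannose receptor, and Fcgr3, an Fc receptor, both chosen after their values were seen, rose by 0.86 and 0.77, and Lyz2, lysozyme, by 0.44. Among 12 genes of MHC class II presentation and co-stimulation 5 rose and 3 fell. Cd40 was at 475, 504 and 462 CPM against 218, 262 and 302 CPM (-0.88, SE 0.11), without overlap, and Cd80 rose by 0.65. Ciita, the master regulator of class II, was at 1.78 ± 0.201 and 0.238 ± 0.244 CPM (-2.83, adjusted p = 0.0113; 0.0616 without PSTO+LPS 2), and Pdcd1lg2 was at 0.162 ± 0.16 and 1.02 ± 0.418 CPM (2.64, adjusted p = 0.0309; 0.134 without PSTO+LPS 1).

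Lysosomal, ribosomal and mitochondrial transcripts moved by small amounts. Of 23 lysosome genes, 10 were higher and 5 lower, with Gla, an alpha-galactosidase, up by 1.07, Atp6v0d1 up by 0.44, Grn down by 0.56 and Tfeb down by 0.71 (adjusted p = 0.016; 0.0536 without PSTO+LPS 1). Without that library the lysosome counts were 8 higher and 4 lower. Of 27 ribosomal protein genes, 13 were higher and 0 lower, also at an unadjusted edgeR p under 0.05, with a median of 0.10. Over the settings tried, DESeq2 and limma-voom at 13 each among them, 6 to 21 were called higher and 0 lower. Rplp0 was at 1204 ± 12.6 and 1386 ± 19.4 CPM, and Rpl10a and Rplp2 rose by 0.17 and 0.16. Of 15 mitochondrially encoded genes 4 were higher and 0 lower (5 and 0 at an unadjusted edgeR p under 0.05, 3 and 0 with DESeq2, 4 and 0 with limma-voom): mt-Rnr1 and mt-Rnr2, the ribosomal RNAs, rose by 0.60 and 0.43, and mt-Nd4 by 0.31 (adjusted p = 0.0268; 0.0675 without PSTO+LPS 1). mt-Atp6 was at 20.6, 20.5 and 80.2 CPM in PSTO+LPS and at 17.2, 16.6 and 15.5 CPM in LPS. Its log2 difference of 1.30 rested on PSTO+LPS 3 and was 0.32 (adjusted p = 0.0503) without it.

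Whether the PSTO difference seen with LPS was also present without LPS can be read from the other 6 libraries, which share none with this comparison. PSTO against control called 2148 genes higher (14.8%) and 2292 lower (15.8%). Higher in both were 1173 genes, 48.8% of those higher with LPS and 54.6% of those higher without it. Lower in both were 1373 genes, 43.6% of those lower with LPS and 59.9% of those lower without. Opposite calls were made in 2 ways, for 125 genes higher with LPS and lower without, and for 178 the other way. Over 10830 genes with a mean of at least 1 CPM in all groups the Pearson correlation of the 2 log2 differences across genes was 0.56, and over all tested genes it was 0.4, given as a description since genes are not independent replicates. Cd40 is an example of opposite calls chosen after its values were seen: PSTO raised it from 1.06 ± 0.544 to 2.56 ± 0.532 CPM without LPS, and with LPS it was lower. Ccnd2 was another, raised by 1.36 without LPS (edgeR adjusted p = 0.0243) and lowered by 2.70 with it. Without LPS it was near the floor, at 0.3 ± 0.177 CPM in control (25 reads) and 0.749 ± 0.134 CPM in PSTO (60 reads). The difference between both PSTO effects, tested as an interaction, was called for 2476 genes (17.1%), among them Cd40 (-2.14, adjusted p = 4.91e-05) and Ccnd2 (-4.05, adjusted p = 1.17e-05). For Il23a, whose difference without LPS was 0.11 (adjusted p = 0.943), the interaction was 2.96 (adjusted p = 0.0267), and for Ccl22 it was -2.52 (adjusted p = 2.64e-05). Il23a had 7 reads in control and 7 in PSTO, so its effect without LPS rests on few reads.

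Promoter letters were also counted over the whole classes. The interferon response letters were in 51 of 537 dampened genes with a RefSeq match (9.5%), in 20 of 190 left genes (10.5%) and in 7 of 223 superinduced genes (3.14%), against 2.93% of all tested genes. The AP-1 letters, a search added after seeing which genes rose, were in 29 of 223 superinduced genes, 19 of 190 left genes and 37 of 537 dampened genes (6.89%), against 4.6% of all. They were also in 5 of 23 interferon-stimulated genes (21.7%) and 2 of 10 interferon-inducible GTPases, lists with members lower and none called higher in the fit over 12 libraries. The antioxidant response letters were in 16.1% of superinduced and 12.1% of left genes and in 59 of 537 dampened genes, against 12.2% of all, and 6 superinduced genes held both the AP-1 and the antioxidant letters. An NF-kB motif was in 8.07% of superinduced, 9.47% of left and 7.82% of dampened genes, against 4.28% of all. The C/EBP-ATF letters TGATGNAA were in 3.59%, 3.68% and 2.98% of the same classes, against 2.02% of all, and the heat shock letters, GAA, TTC and GAA with any 2 letters between each, in 1 dampened gene and in 0 superinduced or left genes.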

How the data were processed

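The authors deposited whole-number read counts per gene without normalization; all values were whole and totals differed between libraries. The tools named in the submitters' processing notes are HISAT and DESeq2, and the build is mm39. The labels' protocols name total RNA and a Qiagen kit. Which counter, annotation, strand setting and versions were used is not given in the sources used here, so reads of overlapping, antisense or near-identical genes cannot be told apart.

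Of 55137 entries, 14505 passed edgeR's filterByExpr (468 unnamed), 40632 were set aside, and the tested genes held 99.92 to 99.94% of the reads. In R 4.3.3 with edgeR 4.0.16, counts were scaled by TMM and fitted by quasi-likelihood with 1 mean per group over 12 libraries (common biological coefficient of variation 0.0959). The SE is the log2 difference divided by the square root of F. Genes were called at a Benjamini-Hochberg adjusted p under 0.05. On simulated counts of 14505 genes for PSTO+LPS against LPS, 46.3% of 67 changes of 0.5, 68.7% of 67 changes of 1 and 75.8% of 66 changes of 2 on the log2 scale were recovered, with 8 false calls. In the simulation only these genes changed and LPS had no effect. The data had 5557 calls, so these rates need not hold for them. DESeq2 1.42.0 and limma 3.58.1 (voom) were alternatives, as were other scalings, filters, a replicate block, the 6 libraries alone, each library left out, and other definitions of raised and left.

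Members, gene lists, the panel and the naming rule were chosen with earlier results of these data known. Named genes are the 15 largest differences each way among calls without overlap of libraries and with a mean of at least 5 CPM in the higher group, the 12 most dampened and 12 most superinduced LPS-raised genes, 6 each way among genes LPS changed by under 1.5-fold, up to 4 called members of each of 31 lists (605 members, 581 tested), and 22 genes of the LPS, NRF2 and stress responses that the text describes. Unnamed loci, numbered gene models and pseudogenes were passed over, and some genes that the rule gave are not reported here. Genes outside the rule are marked where named or were added from the lists. Promoters were read from RefSeq GRCm38.p6, another build than that of the counts, by symbol, with 9613 tested genes matched. Motifs were searched as letters on both strands of the 250 bases before the start.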

Additional observations from a re-analysis of the deposited data

Results flagged for a closer look

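The effect of PSTO with LPS was set against its effect without LPS for the 22 panel genes, by an interaction term in the edgeR fit over all 12 libraries. It was called for 8 of them, and for 17.1% of all tested genes. Hmox1 and Srxn1, both NRF2 targets, had a larger rise with LPS, by 0.56 (SE 0.15, adjusted p = 0.0147) and 0.60 (SE 0.12, adjusted p = 0.0013) on the log2 scale. PSTO+LPS 1 was the highest library for both genes, and these interactions are not given without it. Slc7a11, the cystine importer, rose by 1.55 without LPS and by 0.60 with it, an interaction of -0.95 (adjusted p = 5.71e-06). Cd14 rose in both settings, by 1.59 and by 1.28, and the interaction was -0.31 (adjusted p = 0.000638).

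Among called mediators, Il1b had the widest gap, an interaction of -3.35 (adjusted p = 2.59e-05). Its level without LPS was 0.0521 ± 0.0902 CPM in control and 0.945 ± 0.102 CPM in PSTO (SD, n = 3), so the effect without LPS rests on few reads. Tnf differed by -0.13 without LPS (adjusted p = 0.256) and by -0.52 with it, and the interaction was -0.39 (adjusted p = 0.0172). For Ccl2 it was -1.13 (adjusted p = 0.00586), with levels of 2.32 ± 0.219 and 2.27 ± 0.298 CPM in control and PSTO. Cxcl10 went the other way, with an interaction of 1.62 (adjusted p = 0.0101): it fell by 1.78 without LPS, from 2 ± 0.599 to 0.573 ± 0.41 CPM, and was not called with LPS.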

How the results depend on the processing

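Counts of called genes kept within 1.5-fold under every other setting: 5559 with relative log expression size factors, 5532 with upper-quartile scaling, 5524 without a filter, 5344 with a filter of 50 reads, 5727 with DESeq2, 5266 with limma-voom, 5161 with the 6 libraries alone and 4790 to 5549 with each library left out. The share of higher genes among the calls was 43.3% and ran from 40.4 to 49.9%. The replicate block gave 5366; the numbers do not pair the samples, since correlations of same-numbered LPS and PSTO+LPS libraries were 0.051, 0.012 and -0.019. With LPS-raised set at a log2 change of at least 2, 389 genes were dampened, 208 superinduced and 123 left, of fewer raised genes. With a narrower bound 160 were left, since fewer intervals lie within it, and a wider bound can only add to the number left. Leaving out each library in turn gave 645 to 723 dampened, 293 to 366 superinduced and 252 to 288 left. The median of the macrophage identity list was -0.05 and became 0.0068 with a filter of 50 reads; the cause was not tested. No called gene that the naming rule gave changed direction in any setting. Called genes that lost their call in at least 1 were Tlr4, Pdcd1lg2, Egln3, Tfeb, mt-Nd4, mt-Atp6, Ccl17, Dusp14, Rplp2, Nr1h2, Nr1h3, Nlrc4 and Ciita, and Cxcl10 gained its call without a filter. At this depth and spread, 668 LPS-raised genes were neither called nor bounded within 1.5-fold.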
